A study of Mus musculus with 4 samples.

Results

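The 44 genes of glutathione metabolism and antioxidant defence described here were taken by symbol from the 30828 genes listed in both matrices, and all 44 were found. The cells came from testes of mice at postnatal day 8, after a sort on surface CD9 and THY1 meant to enrich spermatogonia, and their RNA was counted by droplet single-cell sequencing as unique molecular identifiers (UMIs), each standing for 1 captured molecule. The Cnot3-cKO mice carried floxed *Cnot3* alleles and Cre fused to a modified oestrogen receptor under the germ cell gene *Ddx4*, so that 4-hydroxytamoxifen (4-OHT) started the deletion in cells that express this gene. Controls are labelled wild-type and received 4-OHT as well; the study describes its neonatal controls as floxed littermates without Cre. Injections began at postnatal day 1. The last day of 4-OHT differs between the labels of the 4 samples, whereas the methods of the study give 1 schedule of daily injections for neonatal mice. The labels list 4 samples, 2 per genotype, but both samples of a genotype were merged into 1 matrix. Whether these 2 are separate cell preparations or 2 sequencing runs of 1 library is not known here. Each comparison of genotypes is therefore between 1 library and 1 library, without a replicate check, and no test was made. Intervals are at 95% and cover counting error only.

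Glutathione is a small thiol made in a pair of steps, by glutamate-cysteine ligase and then glutathione synthetase, and it is kept reduced by glutathione reductase. Glutathione S-transferases join it to reactive compounds, and glutathione peroxidases use it to reduce peroxides. Thioredoxin and peroxiredoxins form a parallel peroxide-reducing system, and superoxide dismutases and catalase deal with superoxide and hydrogen peroxide. The transcription factor NRF2 (gene *Nfe2l2*), which KEAP1 holds at low levels in unstressed cells, drives many of these genes through antioxidant response elements. In the testis, Sertoli cells are known for abundant glutathione S-transferases, and spermatogonia are sensitive to oxidative damage.

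The control matrix held 181550221 UMIs and the Cnot3-cKO matrix 168770743. Cell calling gave 8341 and 9336 barcodes, of which 18 sequences were shared between the libraries. The filters of the study left 241 control and 71 Cnot3-cKO germ-like cells (stated set), and their upper bounds leave out deep barcodes, among them many germ cells. A wider set, with up to 20% mitochondrial UMIs and no upper bound, held 1333 and 559 germ-like cells. Cells were clustered without the 44 genes, so that the genes had no part in defining the classes. *Cnot3* stood at 71.1 UMIs per 1000000 (CPM) in control against 39.5 in Cnot3-cKO germ-like cells of the wider set, which is a log2 ratio of -0.85 (-0.95 to -0.75), and at 64.5 and 67.2 in Sertoli-like cells. The 9 germ markers summed to 2587 and 2799 CPM in the wider germ-like cells. The 12 Sertoli markers summed there to 276 and 370 CPM, and to 2885 and 4708 in barcodes of at most 100 UMIs, which hold free RNA. Because each captured molecule is tagged at its 3′ end, CPM does not scale with transcript length.

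Promoter DNA is shown for 4 genes that hold the core of the antioxidant response element, TGACNNNGC on either strand, the site through which NRF2 is known to act. They are *Prdx1*, the most abundant of the genes in germ-like cells, *Txnrd1*, which stood higher in Cnot3-cKO germ-like cells, *Gclm*, which was level there, and *Srxn1*, which was scarce. Promoter windows of 300 bases, 250 before and 50 after the start, were available from RefSeq (GRCm38.p6) for 37 of the 44 genes. For *Gclc*, *Hmox1*, *Gsta4*, *Gstt2*, *Gsr*, *Prdx6* and *Xdh* no window was available, so these genes were not searched. The core occurred in 9 of the 49 windows of these genes (18.4%) and in 12.4% of all 32851 windows. The genes with a match were *Gstm5*, *Gstm7*, *Mgst1*, *Gclm*, *Txnrd1*, *Prdx1*, *Sod1*, *Srxn1* and *Nfe2l2*. *Txnrd1* has 3 windows, and the match lies in 1 of them. A match of letters is not evidence of binding. Capitals mark the core.
*Prdx1* promoter, chr4:116685349-116685648, plus strand: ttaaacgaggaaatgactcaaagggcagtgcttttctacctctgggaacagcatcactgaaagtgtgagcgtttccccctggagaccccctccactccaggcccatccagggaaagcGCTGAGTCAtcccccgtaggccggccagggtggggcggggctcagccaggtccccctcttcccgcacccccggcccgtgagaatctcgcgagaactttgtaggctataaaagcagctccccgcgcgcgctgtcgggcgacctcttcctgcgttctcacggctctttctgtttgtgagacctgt
*Txnrd1* promoter, chr10:82858956-82859255, plus strand: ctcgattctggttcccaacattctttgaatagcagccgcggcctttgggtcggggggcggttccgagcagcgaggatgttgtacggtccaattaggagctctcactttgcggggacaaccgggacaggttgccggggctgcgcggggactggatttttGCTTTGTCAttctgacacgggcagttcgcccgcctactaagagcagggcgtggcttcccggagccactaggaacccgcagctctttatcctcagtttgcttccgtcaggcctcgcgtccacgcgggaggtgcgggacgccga
*Gclm* promoter, chr3:122245307-122245606, plus strand: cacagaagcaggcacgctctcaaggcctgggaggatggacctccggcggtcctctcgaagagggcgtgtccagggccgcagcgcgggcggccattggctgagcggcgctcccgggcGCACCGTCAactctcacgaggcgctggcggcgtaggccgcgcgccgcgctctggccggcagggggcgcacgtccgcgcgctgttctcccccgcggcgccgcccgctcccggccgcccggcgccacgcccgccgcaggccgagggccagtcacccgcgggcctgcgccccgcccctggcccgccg
*Srxn1* promoter, chr2:152105274-152105573, plus strand: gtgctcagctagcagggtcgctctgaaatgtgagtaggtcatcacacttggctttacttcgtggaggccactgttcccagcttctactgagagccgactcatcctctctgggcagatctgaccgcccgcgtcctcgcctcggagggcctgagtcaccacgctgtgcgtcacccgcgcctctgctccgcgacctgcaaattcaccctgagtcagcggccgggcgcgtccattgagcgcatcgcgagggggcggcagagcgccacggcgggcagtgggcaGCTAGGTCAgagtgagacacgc
In all 4 windows the core lies on the opposite strand, 133 bases before the start in *Prdx1*, 92 in *Txnrd1* and 134 in *Gclm* as counted from its leftmost base, and 28 bases after it in *Srxn1*.

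In control, most mu-class transferases were highest in Sertoli-like cells and most glutathione synthesis genes in germ-like cells. Of the 44 genes, 15 had their highest level in Sertoli-like, 11 in germ-like, 11 in interstitial, 6 in macrophage-like and 1 in endothelial-like cells. In Cnot3-cKO these counts were 15, 13, 5, 9 and 2. They include genes with few UMIs, such as *Slc7a11*, and the same count over all genes was not made. Germ-like and Sertoli-like cells of the stated set were compared over the 38 genes with at least 100 UMIs. Of these, 8 were at least 2-fold higher in germ-like cells, against 21.8% of all genes, and 17 were at least 2-fold lower, against 24.4%. The median log2 ratio of germ-like over Sertoli-like cells was -0.57 for the 38 genes and 0.06 for all genes. The share in the higher direction was thus near that of all genes, and the share in the lower direction was above it.

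**Figure D1:**
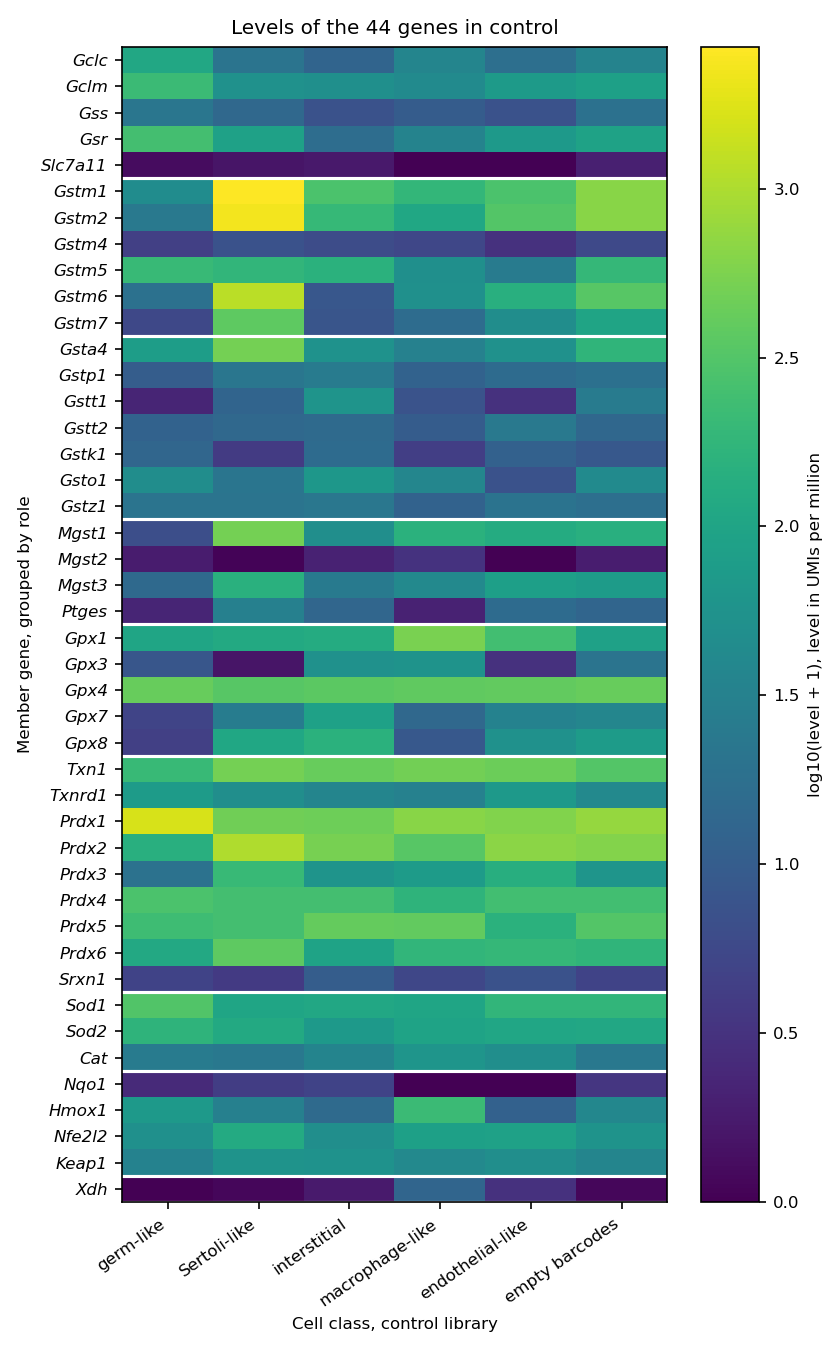
Heat map of the levels of the 44 genes in the control library, as log10 of CPM plus 1 (colour), in 5 cell classes of the stated set and in empty barcodes (columns), with genes grouped by role (rows, white lines). *Gstm1* and *Gstm2* in Sertoli-like cells, at 2626 and 2295 CPM, and *Prdx1* in germ-like cells, at 1649 CPM, are the brightest cells.

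Glutathione synthesis and recycling was highest in germ-like cells for 4 of its 5 genes. *Gclc* (ENSMUSG00000032350.9, chromosome 9, 77754535 to 77794485), the catalytic subunit of glutamate-cysteine ligase, was at 111 CPM in control germ-like and 19.6 in Sertoli-like cells. Its modifier subunit *Gclm* was at 215 and 52.0, and glutathione reductase, *Gsr* (chromosome 8, 33652523 to 33698163), at 247 and 88.6. *Gsr* varied most between classes within this group and was at 15.7 CPM in interstitial cells. *Slc7a11*, the cystine transporter subunit, was below 1 CPM in every class.

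Most mu-class transferases stood the other way, higher in Sertoli-like cells. *Gstm1* (chromosome 3, 108012255 to 108017973) was at 2626 CPM in control Sertoli-like cells, 279 in interstitial cells and 44.7 in germ-like cells. *Gstm2* stood at 2295, 195 and 23.0 CPM in the same classes, and *Gstm6* at 1156, 7.36 and 17.9. *Gstm5* did not share this division, with 200.2 CPM in germ-like and 176 in Sertoli-like cells. *Gsta4* (chromosome 9, 78182774 to 78209349), an alpha-class enzyme that acts on the lipid peroxidation product 4-hydroxynonenal, was at 507 CPM in Sertoli-like and 77.9 in germ-like cells. The membrane transferase *Mgst1* was at 499.9 and 5.64. Not every transferase was lower in germ-like cells: *Gstk1* was 2-fold or more higher there, with a log2 ratio of germ-like over Sertoli-like cells of 2.06 (1.57 to 2.55), as was *Gsto1* (1.19; 0.98 to 1.40), while *Gstz1* was at about the same level in both (0.02; -0.27 to 0.29). Some sequence is shared within the mu-class family. Of the 50-base stretches in the last 500 bases of its transcripts, 15.1% in *Gstm1* and 8.24% in *Gstm6* also occur in another gene, mostly *Gstm3*. The share was 0% in the other 4 mu-class genes. How the shared sequence affects the levels of *Gstm1* and *Gstm6* was not measured.

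Peroxide-reducing enzymes, followed by a superoxide dismutase, were the most abundant members in germ-like cells. *Prdx1* (chromosome 4, 116685544 to 116700822), a cytosolic peroxiredoxin, led there with 1649 CPM, against 647 in macrophage-like, 594 in endothelial-like, 482 in Sertoli-like and 459 in interstitial cells. *Gpx4*, which reduces lipid hydroperoxides in membranes and later forms part of the sperm midpiece, followed with 424 CPM, and *Sod1*, the cytosolic superoxide dismutase, with 305. *Gpx4* ranged narrowly, from 338 CPM in Sertoli-like cells to 424. *Sod1* was at 101 CPM in both Sertoli-like and macrophage-like cells.

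Peroxiredoxins, thioredoxin and *Gpx1* led in the somatic classes other than Sertoli-like cells. *Prdx2* led in interstitial cells, with 526 CPM ahead of *Prdx1* at 459 and *Txn1* (thioredoxin) at 422, and in endothelial-like cells, with 661 CPM ahead of 594 for *Prdx1* and 446 for *Txn1*. In macrophage-like cells, *Prdx1*, *Gpx1* and *Txn1* stood at 647, 530 and 490 CPM. *Gpx1*, the cytosolic glutathione peroxidase, was at 101 CPM in germ-like cells, the lowest of the 5 classes. *Hmox1*, the haem oxygenase induced under oxidative stress, was at 210.3 CPM in macrophage-like and 68.0 in germ-like cells. *Xdh* (xanthine dehydrogenase) had 0 of 7087557 UMIs in control germ-like cells and its highest level in macrophage-like cells.

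In germ-like cells, a subset of the genes stood higher in Cnot3-cKO. In the wider set, *Gclc*, *Gsta4*, *Hmox1*, *Txnrd1*, *Gstt2*, *Nqo1* and *Mgst1* were at least 1.5-fold higher and no gene was 1.5-fold lower. These 7 were among 42 genes that reached 100 UMIs in the libraries together, and 6.8% of all genes were as far in that direction and 3.16% in the other. Without doublets, 10 of 41 genes of the wider set were higher. In the stated set, 7 of 30 were higher and 1 lower, against 5.97% and 4.45% of all genes. The 7 became 4 without doublets, 4 with the empty-barcode profile subtracted and 1 without the stromal-led germ cluster. The median log2 ratio of Cnot3-cKO over control was 0.17 (0.09 to 0.24) over the 42 genes in the wider set and 0.20 (-0.26 to 0.63) over the 30 in the stated set, while it was 0.02 over all genes in both. The interval of a median is the counting interval of the genes at the middle of the list. The genes past 1.5-fold in both sets were *Hmox1* and *Gstt2*. Over the settings tried, the log2 ratio of *Hmox1* ran from 0.60 to 0.78, and that of *Gstt2* from 0.32 to 1.65. The lowest value of *Gstt2*, with each cell weighted alike, lies under 1.5-fold.

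**Figure D2:**
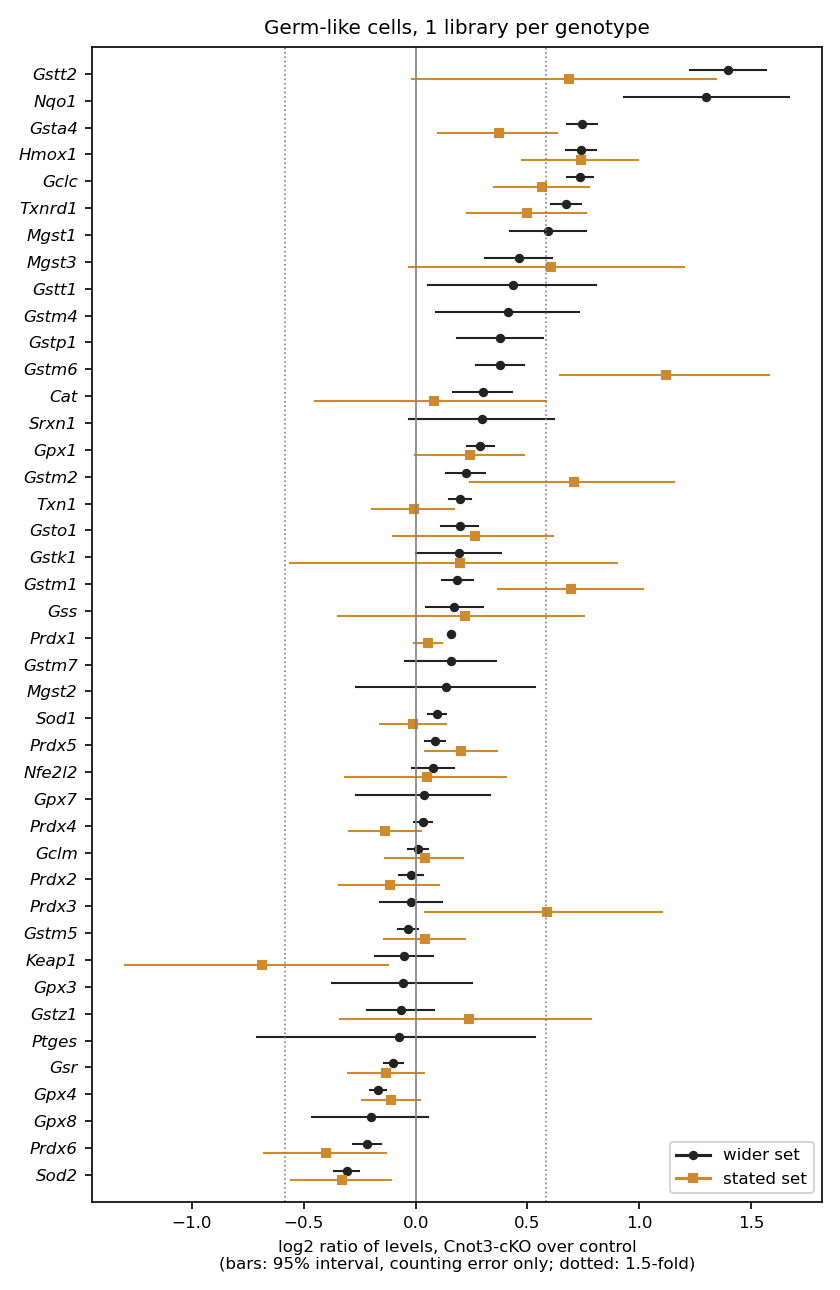
Log2 ratio of the level in Cnot3-cKO over control in germ-like cells (horizontal axis) for the 42 genes with at least 100 UMIs in the wider set (rows, sorted), with 95% intervals for counting error; black circles are the wider set, orange squares the stated set, and dotted lines mark 1.5-fold. *Gstt2* and *Nqo1* lie farthest to the right, at 1.40 and 1.30, and *Sod2* farthest to the left, at -0.31.

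Of glutathione synthesis, only the catalytic subunit was past 1.5-fold. *Gclc* was at 103 CPM in control against 172 in Cnot3-cKO in the wider set, with a log2 ratio of 0.74 (0.68 to 0.79). In the stated set it was at 111 and 164 CPM (0.56). Across 17 ways of processing the germ-like cells the ratio lay between 0.53 and 0.80. *Gclm* stood at 223 and 225 CPM in the wider set, a log2 ratio of 0.01 (-0.03 to 0.06), so the subunits of 1 enzyme differed in their ratio by more than counting error. *Gsr* was at 264 and 247 (-0.10) and *Gss*, glutathione synthetase, had a ratio of 0.17. *Slc7a11*, with 20 and 24 UMIs, was too low to be counted.

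Of the mu-class transferases that are abundant in Sertoli-like cells, *Gstm1*, *Gstm2* and *Gstm6* had ratios above 0 in both sets of germ-like cells, but of a size, and for *Gstm1* a sign, that depended on the processing. *Gstm1* was at 44.7 CPM in control against 72.5 in Cnot3-cKO in the stated set (log2 ratio 0.70), but at 86.1 and 98.0 in the wider set (0.19). *Gstm2* gave 23.0 and 37.6 CPM in the stated set (0.71) and 56.5 and 65.9 in the wider set (0.22). *Gstm6* gave 17.9 and 38.9 CPM in the stated set (1.12) and 32.6 and 42.4 in the wider set (0.38). Over the settings tried, the ratio of *Gstm1* ran from -0.99, with the empty-barcode profile subtracted, to 1.53 and was above 0 in 15 of 17, that of *Gstm2* ran from 0.08 to 1.67 and that of *Gstm6* from 0.27 to 3.20. *Gstm7*, also abundant in Sertoli-like cells, was at 10.3 and 11.5 CPM in the wider germ-like cells (0.16; -0.05 to 0.36) and had too few UMIs in the stated set. Free RNA, estimated from the Sertoli markers at 9.64% of the empty-barcode profile in control and 8.35% in Cnot3-cKO, would give 73.6% and 89.7% of the *Gstm1* level in the wider germ-like cells and over 100% of *Gstm2*. This estimate keeps the germ clusters led by somatic genes, so Sertoli RNA of those barcodes counts as free RNA. The Sertoli markers summed to 276 and 370 CPM with these clusters and to 66.6 and 114 without them. *Gstm5*, which germ-like cells hold at 227 and 221 CPM, had a ratio of -0.04 (-0.08 to 0.01), and its free-RNA part was 7.97% and 6.29%.

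Of the other soluble transferases, *Gsta4* and *Gstt2* differed most. *Gsta4* was at 72.7 and 122 CPM in the wider set, a log2 ratio of 0.74 (0.68 to 0.81), and at 77.9 and 101 in the stated set (0.37). *Gstt2* (chromosome 10, 75831114 to 75837424), a theta-class enzyme, was at 9.18 and 24.2 CPM in the wider set, a log2 ratio of 1.40 (1.23 to 1.57), and at 10.9 and 17.5 in the stated set (0.68). Its neighbour *Gstt1* was at 2.77 and 3.74 CPM. *Gstp1*, *Gstk1*, *Gsto1* and *Gstz1* had ratios from -0.07 to 0.38 in the wider set. Free RNA at the shares above, which include the somatic-led clusters, would give 23.0% and 15.2% of *Gsta4* and 13.7% and 5.33% of *Gstt2*.

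Membrane-bound members of the MAPEG family were scarce in germ-like cells. *Mgst1* was at 12.5 CPM in control against 18.8 in Cnot3-cKO in the wider set (log2 ratio 0.59). Free RNA at the same shares would there give more than its whole level, 111% and 110%. *Mgst3* was at 13.7 and 20.8 CPM in the stated set (0.60) and 16.8 and 23.1 in the wider set (0.46). *Mgst2* and *Ptges*, the inducible prostaglandin E synthase, stayed under 4 CPM in the wider set.

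Glutathione peroxidases leaned the other way for the most abundant member. *Gpx4* was at 390 CPM in control against 346 in Cnot3-cKO in the wider set, with a log2 ratio of -0.17 (-0.21 to -0.13), and at 424 and 393 in the stated set (-0.11). *Gpx1* was at 109 and 133 CPM (0.29) in the wider set. *Gpx3*, *Gpx7* and *Gpx8* were between 4.79 and 7.71 CPM in both libraries.

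In the thioredoxin system, *Txnrd1* (chromosome 10, 82833951 to 82897712), the cytosolic selenoenzyme that reduces thioredoxin, was at 72.7 CPM in control against 116 in Cnot3-cKO in the wider set. Its log2 ratio was 0.67 (0.60 to 0.74), and it was 0.50 in the stated set with 73.2 and 103 CPM. *Txn1* itself was at 170.3 and 196 CPM (0.20). *Prdx1* was at 1627 and 1817 CPM (0.16). The mitochondrial *Prdx3* was past 1.5-fold in the stated set, with 18.3 and 27.5 CPM (0.59), and at 23.6 and 23.3 in the wider set (-0.02). *Prdx6* stood lower in both sets, with 129 and 111 CPM in the wider set (-0.22) and 116 and 87.9 in the stated set (-0.40). *Prdx2*, *Prdx4* and *Prdx5* lay within 0.10 of a log2 ratio of 0 in the wider set, and *Srxn1*, the sulfiredoxin that repairs overoxidised peroxiredoxins, was at 3.99 and 4.90 CPM.

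Of the superoxide dismutases, mitochondrial *Sod2* (chromosome 17, 13006846 to 13040063) had the lowest ratio of the 42 genes. It was at 169 CPM in control against 136 in Cnot3-cKO in the wider set (-0.31; -0.36 to -0.25) and at 165 and 131 in the stated set (-0.33), and it was below 0 in all 17 ways of processing. *Sod1* was at 289 and 309 CPM (0.10). *Cat*, catalase, was at 23.1 and 28.4 CPM (0.30).

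Among the NRF2 targets, *Hmox1* (chromosome 8, 75093621 to 75100589) was at 76.3 CPM in control against 127 in Cnot3-cKO in the wider set, with a log2 ratio of 0.74 (0.67 to 0.80). In the stated set the levels were 68.0 and 113 CPM, with a ratio of 0.74 as well. *Nqo1*, a quinone reductase, was at 2.10 and 5.17 CPM from 119 and 134 UMIs in the wider set, a log2 ratio of 1.30 (0.93 to 1.67). *Nfe2l2* itself was at 51.5 and 54.3 CPM (0.08). *Keap1* was the single gene 1.5-fold lower in the stated set, with 31.3 and 19.5 CPM (-0.69; -1.30 to -0.12), but was at 27.9 and 26.9 in the wider set (-0.05). *Xdh*, with 1 UMI in each library of the wider set, was too low to compare.

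The wider germ-like cells formed 8 clusters, of which 1, led by Sertoli genes, held by far the most Sertoli RNA. The Pearson correlation with the Sertoli markers was 0.996 in control and 0.989 in Cnot3-cKO for *Gstm1*. It was 0.83 and 0.85 for *Mgst3*, 0.74 and 0.67 for *Gsta4*, and -0.26 and -0.30 for *Gclc*. With 1 cluster so far from the rest, these coefficients mainly tell whether a gene was high in that cluster. In the cluster led by Sertoli genes, with 90 and 46 cells, the 12 Sertoli markers summed to 2644 CPM in control against 2594 in Cnot3-cKO, and *Gstm1* was at 638 and 555. In the cluster led by stromal genes, with 123 and 49 cells, the markers summed to 321 and 551. In the other 6 clusters the markers summed to 60.5 to 70.9 CPM in control and 87.2 to 124 in Cnot3-cKO, and *Gstm1* was at 26.4 to 41.2 and 25.6 to 42.9. *Gstm1* levels thus overlapped between genotypes in those 6 clusters, while the marker sums did not. All clusters of a genotype come from 1 library, so they are not replicates.

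*Gclc*, *Txnrd1*, *Hmox1*, *Gsta4* and *Gstt2* were higher in Cnot3-cKO in 8 of 8 clusters, and *Gpx4* and *Sod2* were lower in 8 of 8. *Mgst1*, *Mgst3* and *Gss* were higher in 8 of 8 as well, at levels of at most 10.2, 26.1 and 38.7 CPM in the 6 clusters not led by somatic genes. The share of all genes with the same direction in 8 of 8 clusters was not computed. *Gclc*, *Txnrd1*, *Hmox1*, *Gsta4*, *Gstt2* and *Mgst1* were already past 1.5-fold in the sum of these cells. Their direction in the parts of that sum is therefore no separate support. With both somatic-led clusters left out, 1120 control and 464 Cnot3-cKO cells remained. There *Gclc* was at 106 and 180.2 CPM, *Gsta4* at 67.2 and 112, *Hmox1* at 78.8 and 129, *Txnrd1* at 75.5 and 120, and *Gstt2* at 8.82 and 23.8. Their log2 ratios were 0.76, 0.73, 0.71, 0.66 and 1.43, close to those with the clusters kept. *Gstm2*, at 12.2 and 19.8 CPM, *Gstm6*, at 9.76 and 18.0, and *Mgst1*, at 3.45 and 7.20, gave 0.71, 0.88 and 1.06, beside Sertoli marker sums of 66.6 and 114 CPM in these cells. Whether that difference in Sertoli RNA gives the ratios of *Gstm2*, *Gstm6* and *Mgst1* was not tested.

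**Figure D3:**
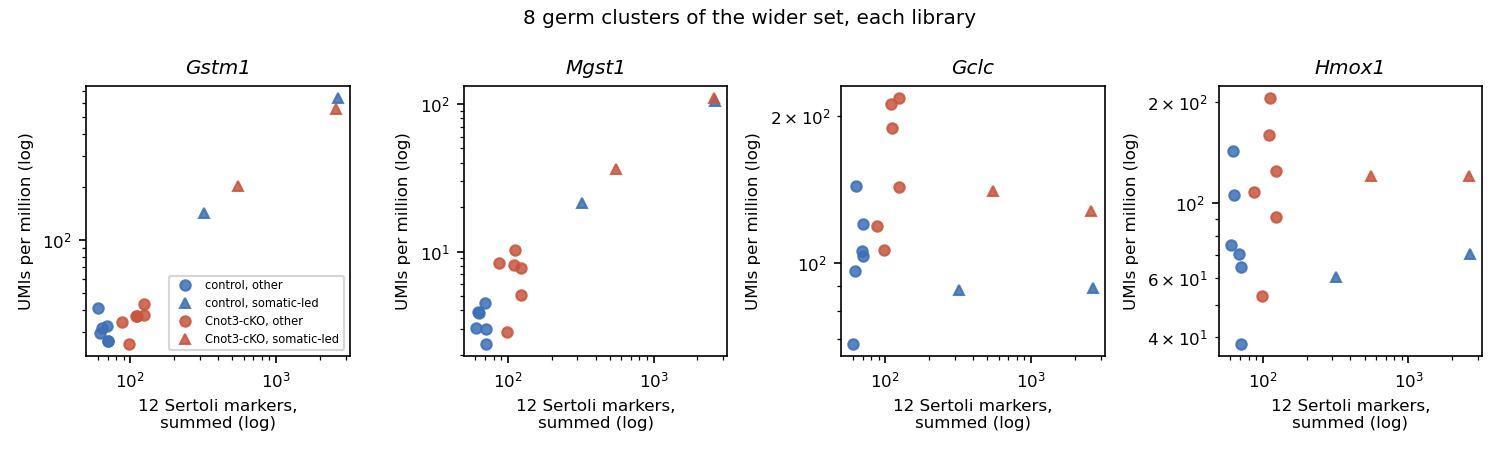
Levels of *Gstm1*, *Mgst1*, *Gclc* and *Hmox1* (vertical log axes, CPM) against the summed level of the 12 Sertoli markers (horizontal log axes, CPM) in the 8 germ clusters of the wider set, for control (blue) and Cnot3-cKO (red); triangles are the clusters led by somatic genes. *Gstm1* and *Mgst1* climb along the marker axis to 638 and 109 CPM, whereas the *Gclc* points of Cnot3-cKO, at 107 to 217 CPM, lie above control, at 68.6 to 144 CPM, within each cluster and show no such climb.

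The germ clusters were named by stage, with 358 control and 216 Cnot3-cKO cells SSC-like (spermatogonial stem cell), 205 and 30 Progenitor-like and 437 and 143 Differentiating-like. In control, 5 of 36 genes differed at least 2-fold between SSC-like and Differentiating-like cells, against 18.9% of all genes. *Gstp1*, *Gpx1*, *Gstt2* and *Mgst3* were higher in SSC-like cells, with log2 ratios of 2.02, 1.80, 1.78 and 1.49, and *Sod2* was lower (-1.20). *Gpx1* was at 164 CPM in control SSC-like, 95.2 in Progenitor-like and 47.2 in Differentiating-like cells, and *Sod2* at 103, 162 and 237. *Gpx1* and *Sod2* thus ran in opposite order along the stages. The more abundant peroxidase *Gpx4* (-0.51) and the dismutase *Sod1* (-0.20) were lower in SSC-like cells, as *Sod2* was. The pair therefore does not stand for peroxidases and dismutases as groups, and the share of genes past 2-fold was below that of all genes. *Gsta4* and *Hmox1* were also higher in SSC-like cells (0.72 and 0.71). Since SSC-like cells were a larger part of the Cnot3-cKO germ-like cells, the genotypes were compared within stages. The stages were set after centring each library, because without centring the largest SSC-like cluster held 1 control and 275 Cnot3-cKO cells. Without centring, SSC-like and Differentiating-like cells gave *Gclc* ratios of 1.18 and 0.08, against 1.01 and 0.14 with it, and the 209 control and 10 Cnot3-cKO Progenitor-like cells gave 0.33 (-0.11 to 0.75).

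Within SSC-like cells, *Gclc* was at 103 CPM in control against 207 in Cnot3-cKO, with a log2 ratio of 1.01 (0.92 to 1.11). In Progenitor-like cells it was at 68.6 and 119 (0.80; 0.53 to 1.05), and in Differentiating-like cells at 116 and 128 (0.14; 0.02 to 0.26). The intervals of SSC-like and Differentiating-like cells do not overlap. After each cell was thinned to 10000 UMIs, 60.1% of 348 control and 81.3% of 214 Cnot3-cKO SSC-like cells held a *Gclc* UMI, with 10 and 2 shallower cells left out. Their median depths were 39728 and 42780 UMIs, and without thinning 97.7% of the Cnot3-cKO cells held one. Sertoli-like cells, thinned alike, gave shares of 17.2% and 17.4%, with 84 and 154 cells left out and a median of 13827 and 13300 UMIs per cell. In the stated set, with 67 and 26 SSC-like cells, *Gclc* was at 112 and 224 CPM (interval of the log2 ratio 0.69 to 1.30), and in its Differentiating-like cells at 117 and 105 (-0.15; -0.56 to 0.24). The difference between stages has no replicate check.

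Of the other genes past 1.5-fold, 4 were also compared by stage. *Txnrd1* was at 89.7 and 135 CPM in SSC-like cells (0.59), 51.1 and 79.6 in Progenitor-like cells (0.64) and 73.6 and 85.1 in Differentiating-like cells (0.21). *Hmox1* was at 95.3 and 152 CPM in SSC-like (0.67) and 58.1 and 75.6 in Differentiating-like cells (0.38), with a ratio of 0.52 in Progenitor-like cells. *Gsta4* was at 98.0 and 151 CPM (0.63), 39.9 and 80.3 (1.01), and 59.6 and 67.8 (0.18). *Gstt2* stood higher in each stage, at 14.5 and 33.4 CPM (1.20), 8.41 and 21.2 (1.34), and 4.23 and 8.82 (1.06). With the libraries centred, the ratio was smallest in Differentiating-like cells for each of these 4 genes. For *Gstt2* the intervals of the 3 stages overlap. For *Txnrd1* and *Hmox1* the intervals of Progenitor-like and Differentiating-like cells overlap. Without centring, the smallest ratio of *Hmox1*, *Gstt2* and *Txnrd1* was not in Differentiating-like cells. There *Hmox1* had a ratio of 0.07 (-0.06 to 0.20) in SSC-like and 0.31 (0.13 to 0.48) in Differentiating-like cells. *Gsta4* was again lowest in Differentiating-like cells, but with overlapping intervals in these stages, 0.34 (0.18 to 0.49) and 0.21 (0.03 to 0.39). *Gstt2* was at 0.68 in SSC-like, -0.19 (-2.10 to 1.22) in Progenitor-like and 0.50 (-0.16 to 1.13) in Differentiating-like cells. *Txnrd1* was higher in SSC-like than in Differentiating-like cells, 0.89 against 0.20, with 0.11 (-0.46 to 0.62) in Progenitor-like cells, of which Cnot3-cKO had 10. Of the 29 genes counted in all 3 stages, 15 were higher and 4 lower in Cnot3-cKO in every stage, and the ratio was larger in SSC-like than in Differentiating-like cells for 22. Over all genes counted in the 3 stages, 30.5% were higher and 25.1% lower in every stage, and 50.1% had the larger ratio in SSC-like cells.

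*Prdx1* and *Gsr* differed in direction between stages. *Prdx1* was at 2011 CPM in control against 2271 in Cnot3-cKO SSC-like cells (0.18) and at 1615 and 1373 in Differentiating-like cells (-0.23). *Gsr* was at 227 and 254 CPM in SSC-like (0.16) and 298 and 254 in Differentiating-like cells (-0.23). *Sod2* stood at 103 and 102 CPM in SSC-like cells (-0.02) and 237 and 198 in Differentiating-like cells (-0.26), and so was lower in Cnot3-cKO where it was most abundant. The Sertoli markers summed to 66.9 and 120 CPM in SSC-like cells, 60.5 and 87.2 in Progenitor-like cells and 70.8 and 114 in Differentiating-like cells.

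**Figure D4:**
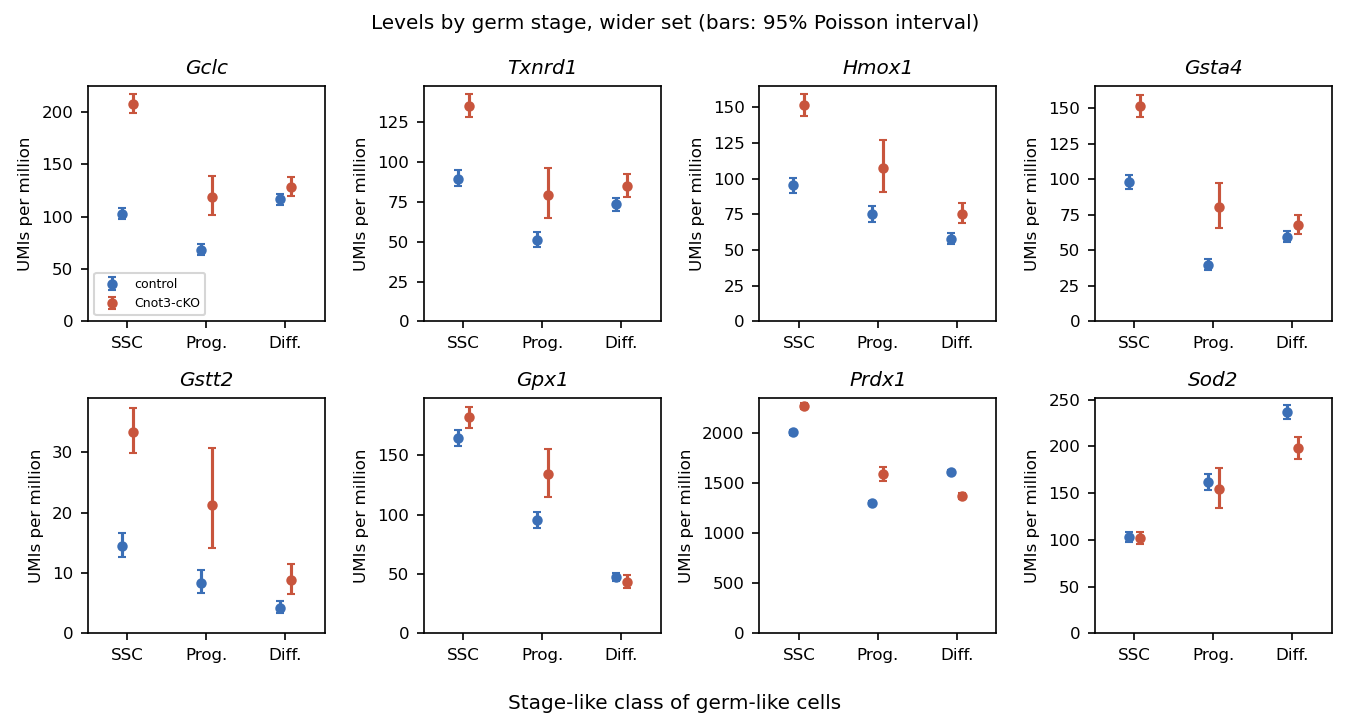
Levels of 8 genes in CPM (vertical axes) in SSC-like, Progenitor-like and Differentiating-like cells of the wider set for control (blue) and Cnot3-cKO (red), with 95% Poisson intervals. *Gclc* is at 103 and 207 CPM in SSC-like cells but at 116 and 128 in Differentiating-like cells, and *Prdx1* stands on opposite sides in these stages.

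In Sertoli-like and interstitial cells, few of the genes were past 1.5-fold. The median log2 ratio was 0.00 (-0.08 to 0.09) over 40 genes in 1400 and 1725 Sertoli-like cells, and -0.05 (-0.12 to 0.03) over 42 genes in 3672 and 3893 interstitial cells. Past 1.5-fold was 1 gene in each, against 1.73% and 2.58% of all genes. In Sertoli-like cells it was *Gstt1*, at 11.7 and 18.1 CPM (0.62), and in interstitial cells *Gstm6*, at 7.36 and 11.4 (0.62), where the Sertoli markers summed to 167 and 226 CPM. The interstitial cells include a cluster of 2 control and 89 Cnot3-cKO cells. *Gclc* was at 19.6 and 20.3 CPM in Sertoli-like cells (0.05), *Gsta4* at 507 and 470 (-0.11), *Hmox1* at 30.2 and 33.8 (0.16) and *Txnrd1* at 47.9 and 55.6 (0.21). *Gstm1* was at 2626 and 2532 CPM there (-0.05).

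In macrophage-like cells, 50 in control and 61 in Cnot3-cKO of the stated set, *Hmox1* and *Gclc* stood higher in Cnot3-cKO in both sets. *Hmox1* was at 210.3 CPM in control against 832 in Cnot3-cKO, with a log2 ratio of 1.98 (1.76 to 2.22). It had the largest ratio of the 21 genes counted. *Gclc* was at 35.1 and 95.6 CPM (1.45; 0.86 to 2.07), *Gclm* at 42.7 and 93.8 (1.13; 0.59 to 1.71), *Gsto1* at 36.1 and 67.5 (0.90) and *Prdx1* at 647 and 1015 (0.65). *Sod1* was lower, at 101 and 62.8 CPM (-0.68). These 6 of 21 genes past 1.5-fold stood against 11.8% of all genes. In the wider set, with 56 and 63 cells, *Hmox1* was at 274 and 794 CPM (1.53) and *Gclc* at 41.9 and 91.5 (1.13), but *Gclm* was at 91.8 and 89.8 (-0.03; -0.43 to 0.37) and *Gsr* was lower, at 68.4 and 22.9 (-1.58; -2.27 to -0.93). *Prdx1* was at 807 and 985 CPM there (0.29), below 1.5-fold. The 5 synthesis and recycling genes summed to 213 and 210.4 CPM in the wider set, and 10 of 27 genes were past 1.5-fold, against 14% of all genes.

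The *Hmox1* RNA was unevenly spread over the macrophage-like cells. Of its UMIs, 31.2% in control and 16.5% in Cnot3-cKO came from 1 cell. Without that cell in each library, the levels were 147 and 713 CPM. At least 1 UMI was found in 28 of 50 and 40 of 61 cells, and the median cell held 91.0 and 145 CPM, so the sums differed more than the medians. For *Gclc*, 9 of 50 and 25 of 61 cells held a UMI, and the levels without the cell of most UMIs were 23.4 and 81.7 CPM. The 7 macrophage markers summed to 9639 and 12576 CPM, the 9 germ markers to 25.2 and 18.8, the 12 Sertoli markers to 705 and 501 and the 9 stromal markers to 2445 and 1945. The macrophage markers were thus higher in the same library as *Hmox1* and *Gclc*, and their part in the result was not tested.

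**Figure D5:**
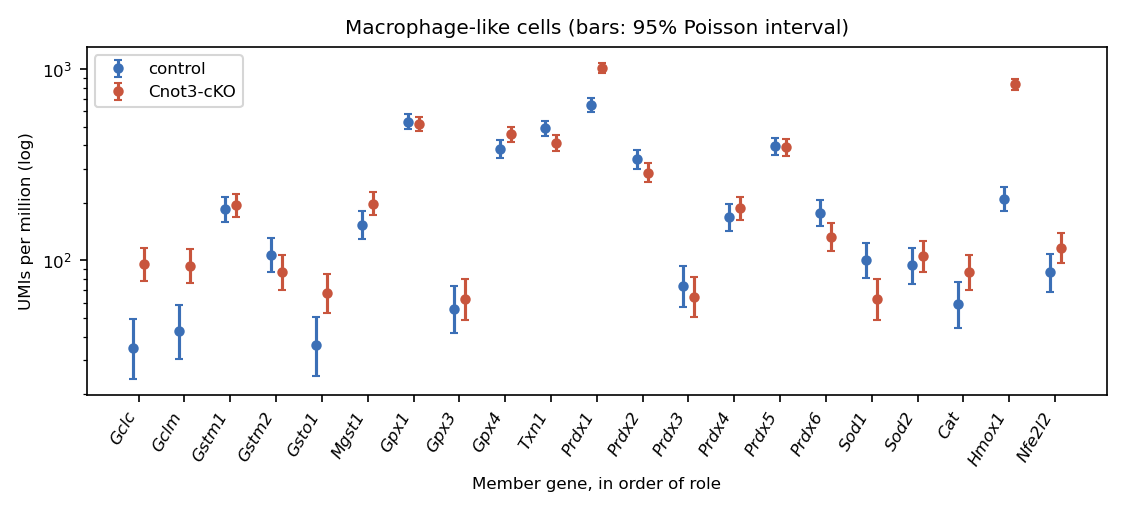
Levels in CPM (vertical log axis) of the 21 genes with at least 100 UMIs in macrophage-like cells of the stated set (horizontal axis, in order of role), for control (blue) and Cnot3-cKO (red) with 95% Poisson intervals. *Hmox1*, at 210.3 and 832 CPM, shows the widest gap, and the *Gclc* and *Gclm* intervals also lie apart.

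In endothelial-like cells, 33 in control and 37 in Cnot3-cKO, 2 of 12 genes were past 1.5-fold, both lower, against 8.27% of all genes in either direction. *Gstm1* was at 278 and 55.2 CPM (-2.33) and *Gstm2* at 314 and 59.6 (-2.40). In the wider set, with 37 and 42 cells, the differences were smaller: *Gstm1* was at 291 and 221 CPM (-0.40; -0.74 to -0.06), below 1.5-fold, and *Gstm2* at 349.6 and 189 (-0.89; -1.24 to -0.55), and 2 of 18 genes, *Gstm2* and *Gstm6* (-1.54), were past 1.5-fold against 8.61% of all genes. The 12 Sertoli markers summed to 1874 CPM in control against 351 in Cnot3-cKO endothelial-like cells, the 9 stromal markers to 360 and 2650, and 34.8% of the control *Gstm1* UMIs came from 1 cell. Their part in the result was not tested.

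Empty barcodes gave the free RNA against which these levels stand. The median log2 ratio of 38 genes there was 0.22, beside 0.20 for all genes, and 3 were at least 1.5-fold higher in Cnot3-cKO, against 10.8% of all genes. *Gstm1* was at 657 and 1053 CPM (0.68), *Mgst1* at 144 and 249 (0.79) and *Prdx3* at 60.6 and 91.5 (0.59). *Gclc* was at 32.5 and 43.8 CPM, *Hmox1* at 37.4 and 50.2 and *Txnrd1* at 39.4 and 48.1, each below its level in germ-like cells. Free RNA at the shares given above would make up 3.03% and 2.13% of the germ-like *Gclc* level, 4.73% and 3.29% of *Hmox1* and 5.23% and 3.47% of *Txnrd1* in the wider set.

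A wider list of 67 genes from the same pathways, of which 63 were in the files, had 55 genes with enough UMIs in the wider germ-like cells. Of these, 5 were at least 1.5-fold higher in Cnot3-cKO and 1 lower, against 6.8% and 3.16% of all genes, with a median log2 ratio of 0.02. The highest ratios were those of *Gpx2*, a glutathione peroxidase best known from the gut, at 1.77 and 4.90 CPM (1.47), the metallothionein *Mt1* at 743 and 1435 (0.95) and *Gstp2*, a pi-class transferase, at 5.05 and 8.65 (0.78). The lowest were those of *Nnt*, a mitochondrial NADPH-forming enzyme, at 1.55 and 0.97 CPM (-0.69), *Sesn3*, a sestrin, at 38.5 and 29.3 (-0.39) and mitochondrial thioredoxin, *Txn2*, at 98.3 and 76.8 (-0.36). The other 2 past 1.5-fold were *Tkt*, the transketolase of the pentose phosphate pathway, at 32.3 and 52.9 CPM (0.71) and *Glrx*, a glutaredoxin, at 1.61 and 2.55 (0.67). In Sertoli-like and interstitial cells of the stated set, 0 of 49 and 0 of 51 counted genes of this list were past 1.5-fold, against 1.73% and 2.58% of all genes.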

How the data were processed

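Values were raw UMI counts per gene and barcode, deposited by the authors as 1 unfiltered matrix per genotype made with Cell Ranger (version 3.0.1) and the Ensembl 93 annotation on mm10 (GRCm38). For aligner settings, values were not given in the sources used here. Groups came from the genotype labels. The 44 genes, the other lists and the comparisons were chosen with earlier results of these data known.

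Barcodes were called as cells by an order-of-magnitude rule with 3000 expected cells (from 7977 UMIs in control, from 7664 in Cnot3-cKO). The stated set then kept cells with at most 10% mitochondrial UMIs and with UMIs and genes within 2 SD of the mean of their library, as the study describes. The wider set allowed 20% and no upper bound. Scrublet marked 499 control and 454 Cnot3-cKO barcodes as doublets (5.98% and 4.86%), among them 17 and 6 germ-like cells of the stated set and 188 and 74 of the wider set. They were kept, and 1 alternative removed them. Cells were clustered with scanpy (version 1.11.5; 2500 variable genes, 30 principal components, 15 neighbours, Leiden resolution 0.5) without the 44 genes, the wider pathway list and mitochondrial genes. Clusters were named from marker lists by a rule settled after the data were seen: at least 3 raised markers, and no other kind of cell with more of the top 10 genes. Myoid, stromal and Leydig lists counted as interstitial. Clusters that stayed unnamed held 219 control and 247 Cnot3-cKO cells of the stated set. Germ stages were clustered again with libraries centred and without cell-cycle genes.

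UMIs were summed per class and library, scaled to CPM with Poisson intervals (exact), and compared as log2 ratios with exact conditional intervals, over genes with at least 100 UMIs in both libraries together. The interval step was tested on simulated data. Shares of free RNA are the median, over Sertoli markers, of the level in germ-like cells over that in empty barcodes, with the somatic-led clusters kept. Full values are given for members past 1.5-fold in germ-like cells, the 3 highest of each class in control, and the member that varied most between classes in each role. *Tkt* and members outside this rule were named after their values were seen. Positions come from GENCODE M21, in which all 44 identifiers matched. Analyses used Python 3.11.15 and scipy 1.17.1.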

Additional observations from a re-analysis of the deposited data

Results flagged for a closer look

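*Gsr* and *Prdx1* stood on opposite sides in different germ stages, with each interval clear of 0. For *Gsr*, the log2 ratio between genotypes (Cnot3-cKO over control) was 0.16 in SSC-like, -0.31 in Progenitor-like and -0.23 in Differentiating-like cells of the wider set. For *Prdx1* the ratio was 0.18 in SSC-like, 0.29 in Progenitor-like and -0.23 in Differentiating-like cells. The differences between stages were not tested, since each genotype is 1 library. Without centring the libraries, *Gsr* gave 0.09 (-0.01 to 0.18) in SSC-like and -0.31 in Differentiating-like cells, and *Prdx1* 0.08 and -0.31. In the stated set, *Prdx1* gave -0.01 (-0.09 to 0.08) in SSC-like and -0.12 (-0.23 to -0.02) in Differentiating-like cells, so the opposite sides were not detectable there, and *Gsr* gave 0.18 (-0.09 to 0.44) and -0.34 (-0.61 to -0.07).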

How the results depend on the processing

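All intervals cover counting error only, and 1 library per genotype allows no statement about animals. No sample was left out, and no paired analysis was possible because both samples of a genotype are merged in 1 matrix. The median log2 ratio stayed above 0 in germ-like cells under all 16 alternatives run (0.05 to 0.24, lowest in the stated set without its stromal-led cluster) and in empty barcodes under 2, and below 0 in interstitial cells under 6. In Sertoli-like cells it lay on either side of 0 (-0.04 to 0.01). Both counts of germ-like against Sertoli-like cells stayed within 1.5 times under 4 alternatives each.

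The count of genes 1.5-fold higher in germ-like cells, 7, was 4 without Scrublet doublets, 4 with the empty profile subtracted, 12 with no UMI minimum and 1 in the stated set without its stromal-led cluster. The count of genes 1.5-fold lower, 1, was 2 with the empty profile subtracted, with a minimum of 50 UMIs and with no minimum. It was 0 in the wider set (also without somatic-led clusters or without Scrublet doublets), with no upper bound, with each cell weighted alike, with libraries centred, with cells taken by 10 UMIs of *Ddx4* and *Dazl*, and with 6000 expected cells. The count past 1.5-fold in Sertoli-like cells, 1, was 0 in the wider set and when centred on the median gene, and 2 with no minimum. In interstitial cells, 1 became 0 in the wider set, with each cell weighted alike and with libraries centred. The 5 genes past 2-fold between stages became 9 when libraries were not centred. The stated set without its stromal-led cluster, the wider set without doublets and the uncentred stages were chosen after seeing the data. Leaving out somatic-led clusters gives no separate stage value, since they lie outside the named stages. The cause of these moves was not tested.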
